A study of Mus musculus with 57 samples.

Results

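The immediate early genes described here were Fos, Fosb, Jun, Junb, Egr1, Ier2, Ier3, Atf3 and Dusp1. They were taken by name, after the Ensembl identifiers of the count table had been matched to symbols with GENCODE M21, and all 9 were found once each among the 55450 genes of the table. Bulk RNASeq was available for 57 libraries in 19 conditions of 3 biological replicates. All came from Sox1-EGFP/FoxA2mCherry cells, a single clone of mouse ESCs that carries an EGFP reporter of Sox1 and an mCherry reporter of FOXA2, so every group has both. At D0 the cells came from SerumLIF and only Sox1-FOXA2- cells were sorted. At D2, D4 and D6 of differentiation in N2B27 with 1 uM RA, all 4 combinations of the reporters were sorted, which gave 39 sorted libraries in 13 conditions. For the 18 progeny libraries, Sox1+FOXA2-, Sox1-FOXA2+ or Sox1+FOXA2+ cells were sorted at D2, replated in RA medium of the same 1 uM dose on a serum base and harvested, per the methods without a second sort, 2 or 4 days later (Progeny D4 and D6). A progeny label therefore names the gate of the founders and not the reporters of the harvested cells.

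Immediate early genes are transcribed soon after a stimulus without new protein synthesis. Growth factors, serum and cellular stress reach them through MAP kinases and factors that are already present, such as SRF with its ternary complex partners, CREB and pre-made AP-1, and their mRNAs turn over fast. Fos and Fosb encode proteins that pair with JUN and JUNB, encoded by Jun and Junb, to form the AP-1 transcription factor. Egr1 encodes a zinc finger transcription factor, and Atf3 a bZIP factor induced by many kinds of stress. Ier2 and Ier3 encode response proteins, of which IER3 acts on survival signalling, and Dusp1 encodes a phosphatase that switches off MAP kinases.

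Promoters are shown for the 4 genes that were higher in progeny than in sorted cells at D6 (Jun, Junb, Ier3 and Dusp1, given with their values further on), so that the bases in front of each can be compared. Sequences were credited to RefSeq on GRCm38.p6, whose table held promoters for 7 of the 9 genes, and are written 5′ to 3′ on the strand of the gene without annotated exon bases. Capitals mark matches, on either strand, to the motifs searched.
Jun: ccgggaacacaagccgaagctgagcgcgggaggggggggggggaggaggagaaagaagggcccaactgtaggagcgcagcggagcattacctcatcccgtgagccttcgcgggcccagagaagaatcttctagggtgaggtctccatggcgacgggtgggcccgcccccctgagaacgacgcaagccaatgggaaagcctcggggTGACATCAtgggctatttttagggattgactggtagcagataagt
Junb: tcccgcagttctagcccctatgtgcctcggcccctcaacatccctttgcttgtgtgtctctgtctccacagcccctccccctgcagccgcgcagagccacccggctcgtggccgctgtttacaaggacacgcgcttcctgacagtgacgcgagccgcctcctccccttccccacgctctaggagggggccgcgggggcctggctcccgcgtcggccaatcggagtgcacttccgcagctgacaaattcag
Ier3: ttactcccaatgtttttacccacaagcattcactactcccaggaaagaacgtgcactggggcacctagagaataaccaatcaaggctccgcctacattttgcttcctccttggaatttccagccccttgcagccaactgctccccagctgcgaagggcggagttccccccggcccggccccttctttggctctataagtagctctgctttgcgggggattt
Dusp1: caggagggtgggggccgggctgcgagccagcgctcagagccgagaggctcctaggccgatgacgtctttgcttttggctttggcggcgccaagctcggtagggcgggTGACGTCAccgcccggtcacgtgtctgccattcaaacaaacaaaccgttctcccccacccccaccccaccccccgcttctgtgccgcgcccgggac
The Jun stretch is chr4:95052223-95052472 on the minus strand, within the antisense gene Junos on the other strand. The Junb stretch is chr8:84978749-84978998 (minus strand), the Ier3 stretch chr17:35821463-35821683 (plus strand) and the Dusp1 stretch chr17:26508520-26508722 (minus strand). The Dusp1 stretch lies within the Dusp1 gene as annotated by GENCODE M21. With exon bases left out, it ends at -48 and that of Ier3 at -30. The motifs were the CArG box bound by SRF, the CRE (TGACGTCA), the AP-1 site (TGANTCA), the AP-1 site of 8 bases (TGACATCA), the EGR site (GCGNGGGCG) and the TATA box (TATAAA). Jun held the AP-1 site of 8 bases from -45 to -38, counted back from its start, and Dusp1 held a CRE from -143 to -136. No motif of the set was found in the stretches of Junb and Ier3. Of the genes not printed, Fos held a TATA box from -33 to -28, Fosb an EGR site from -50 to -42, and Atf3 none. Only the 250 bases before each start were searched, here and for the shares that follow. Sites farther upstream were not looked for. Among all 32851 promoters of the table, 1.47% held a CArG box, 1.55% a CRE, 6.75% the AP-1 site, 2.93% the AP-1 site of 8 bases, 4.70% an EGR site and 12.4% the TATA box. A match is a description of the letters and not of binding.

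Raw counts on genes ranged from 20391512 to 61358355 in sorted libraries and from 10170632 to 81845651 in progeny libraries, and from 14458 to 27832 and from 17513 to 26281 genes were detected. Counts below are normalized counts, that is raw counts divided by the size factor of the library. No pair of libraries was identical. The summed level of the pluripotency markers Pou5f1, Nanog, Zfp42 and Esrrb was 21745 to 56684 at D0 and 1425 to 12944 in the 3 reporter-positive gates at D6. In bulk samples, fewer expressing cells and less RNA per cell cannot be told apart.

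The AP-1 partners differed widely in level. Fos, on chromosome 12 (85473890 to 85477273 on GRCm38, plus strand), was low at D2 and was detected in every progeny library. Its normalized count ran from 0 to 285 at D0, from 0 to 90.1 over the 12 libraries of D2 (median 5.51), from 0 to 468 at D4 (median 118) and from 24.2 to 817 at D6 (median 212). In progeny it ran from 184 to 619.9 at D4 (median 284) and from 242 to 585 at D6 (median 429). All 3 D2 Sox1-FOXA2+ libraries had 0 counts of Fos, whereas D2 Sox1-FOXA2- had 17.7, 29.7 and 0. Fosb, on chromosome 7 (19302696 to 19310051, minus strand), had 0 counts in 17 of 39 sorted libraries and in 0 of 18 progeny libraries. Its highest value was 1150.4 in replicate 2 of D4 Sox1+FOXA2+, where replicate 1 had 0 and replicate 3 had 140.

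Jun, on chromosome 4 (95049034 to 95052222, minus strand), was detected in every library. It ran from 67.2 to 562 at D0, from 325 to 2153 at D2 (median 826), from 606 to 3518 at D4 (median 1951) and from 422 to 3962 at D6 (median 1291). Progeny reached 3816 to 6322 at D4 (median 4865) and 3510 to 8749 at D6 (median 5541). Junb, on chromosome 8 (84974484 to 84978718, minus strand), ran from 123 to 1286 at D0, from 8.84 to 423 at D2 (median 65.9), from 0 to 583 at D4 (median 176) and from 9.10 to 1133 at D6 (median 202). Its progeny values ran from 388 to 2179 at D4 (median 829) and from 589 to 1744 at D6 (median 1347). Of the exon bases of Jun, 7.28% lay on Junos, and of those of Junb, 7.52% lay on Prdx2 on the opposite strand. The strand setting of the counting is not given in the sources used here, so reads of the partners on these bases may not be told apart.

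Among the other transcription factors, Egr1 and Atf3 were detected in all 57 libraries, with 1.72 normalized counts as the lowest value of Egr1. Egr1, on chromosome 18 (34859823 to 34864984, plus strand), had a median of 567 before RA, and of 594, 859 and 968 in the sorted cells of D2, D4 and D6, against 427 and 338 in D4 and D6 progeny. Its highest library was replicate 3 of D2 Sox1-FOXA2+ with 3529, where replicates 1 and 2 had 509 and 1319. Atf3, on chromosome 1 (191170296 to 191218039, minus strand), had 4.98, 51.4 and 140.6 at D0, against 432, 395 and 373 in Sox1-FOXA2- cells at D2. These 2 groups did not overlap, and the share of all genes without such overlap was not counted. Medians of Atf3 were 561, 552 and 636 in the sorted cells of D2, D4 and D6, and 1239.8 and 706 in D4 and D6 progeny.

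Of the response genes, Ier2 was detected in every library and Ier3 had 0 counts in 19 of 57. Ier2, on chromosome 8 (84661331 to 84662852, minus strand), had its highest mean at D0 (2441, 1488 and 2588), with medians of 938, 1173 and 1379 in the sorted cells of D2, D4 and D6. In progeny its medians were 1204 at D4 and 761 at D6. Ier3, on chromosome 17 (35821684 to 35822923, plus strand), had 0 counts in all 3 libraries of D0 and of D4 Sox1+FOXA2-, in 18 of 39 sorted libraries and in 1 of 18 progeny libraries. Dusp1, on chromosome 17 (26505590 to 26562128, minus strand), had a median of 463 before RA, of 175, 451 and 379 in the sorted cells of D2, D4 and D6, and of 752 and 720.1 in the progeny of D4 and D6.

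**Figure D1:**
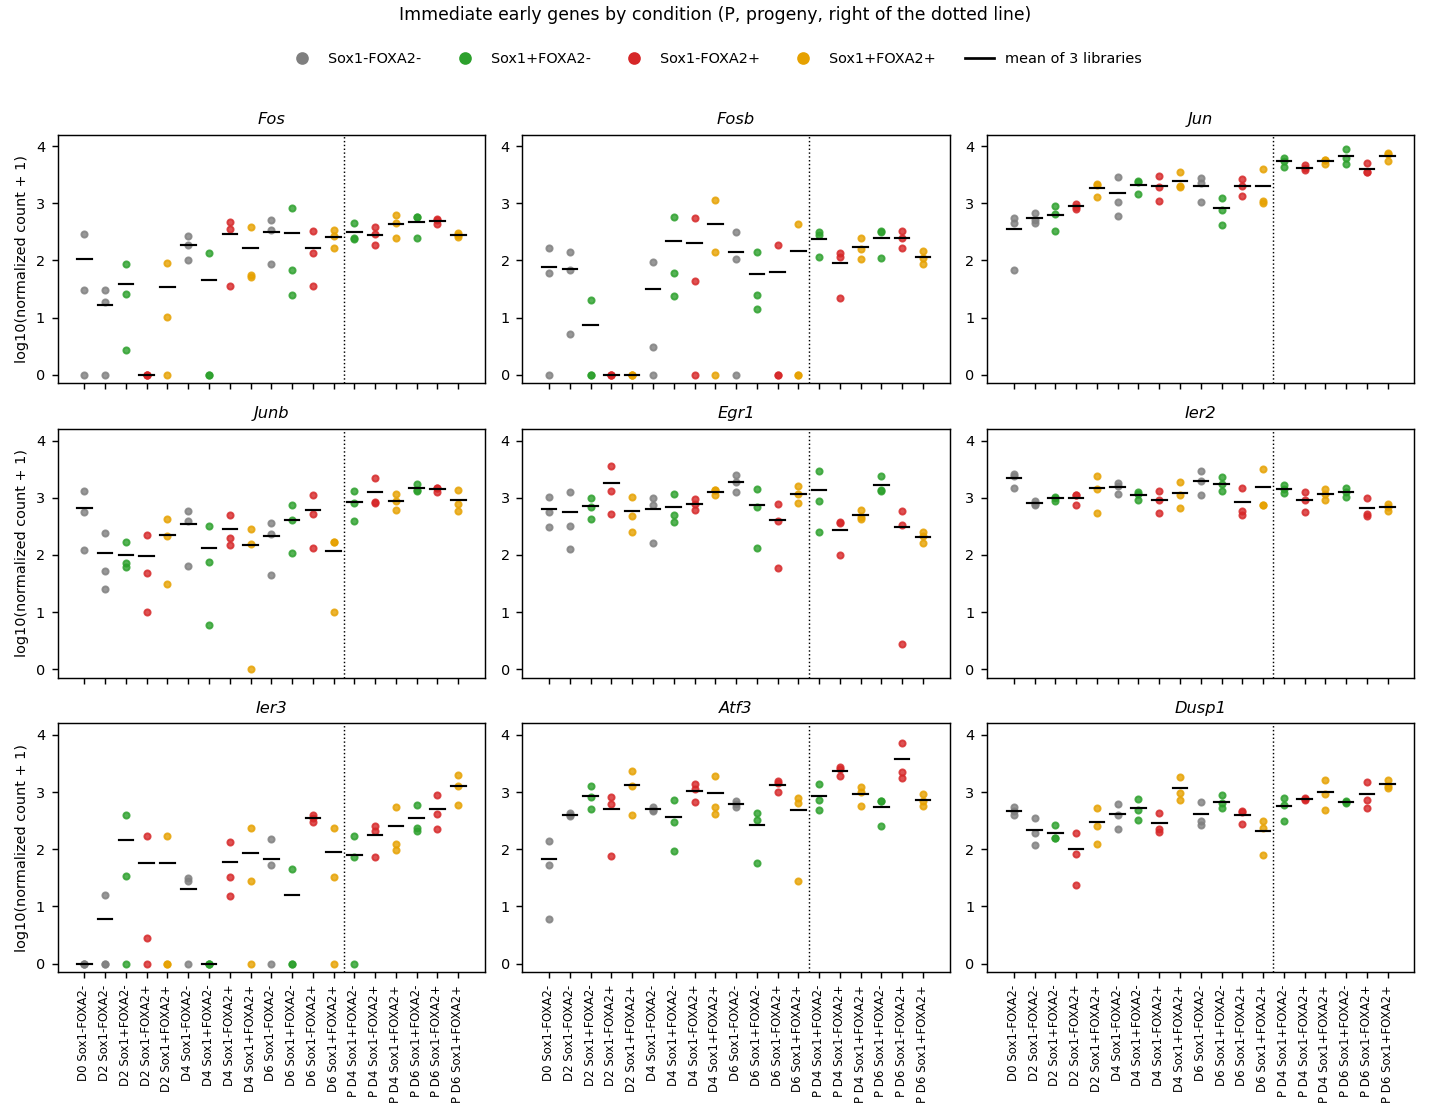
Normalized counts of the 9 genes in each of the 57 libraries, as log10 of the normalized count plus 1 (vertical axis), by condition (horizontal axis, progeny right of the dotted line). Points are libraries, coloured by gate, and short lines are means of 3 libraries. Jun lies at 3510 to 8749 normalized counts in progeny and at 67.2 to 3962 in sorted cells, while Fos, Fosb and Ier3 reach 0 in sorted conditions.

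Per kilobase of exon, Ier2 had the highest median level over the sorted libraries (741 normalized counts per kilobase), followed by Jun (349), Atf3 (257), Egr1 (175), Dusp1 (96.7), Junb (73.1), Fos (29.0), Ier3 (12.6) and Fosb (2.06). Over the progeny libraries the order on the same scale was Jun (1662), Ier2 (665), Junb (528), Atf3 (453), Dusp1 (225), Ier3 (202), Fos (144), Egr1 (88.9) and Fosb (24.4). When the 19 conditions were ordered by mean for each gene, all 18 neighbouring pairs overlapped in their libraries for 8 genes, and 17 of 18 did for Atf3. Where neighbours overlapped, a single step in the order was within the spread of the replicates. The exception for Atf3 was D4 Sox1-FOXA2+ progeny (1946 to 2708) above sorted D6 Sox1-FOXA2+ cells (1014 to 1554).

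A test of any difference among the 19 conditions called 6 of the 9 genes, where 31.9% of 29607 genes tested were called (edgeR quasi-likelihood test, Benjamini-Hochberg adjusted p under 0.05, as in all calls below). The adjusted p was 3.88e-11 for Jun, 2.35e-05 for Atf3, 0.00145 for Dusp1, 0.00418 for Junb, 0.0268 for Fos and 0.0375 for Ier3. Egr1 (adjusted p = 0.104), Ier2 (0.109) and Fosb (0.157) did not pass. Every one of the 9 genes passed the filter on low counts in each comparison.

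Jun and Junb were higher in progeny than in sorted cells at both days, and Ier3 and Dusp1 joined them at D6. The comparison set 9 progeny libraries against the 9 sorted libraries of the same day and gate names. Gates were set at D2 for progeny and at D4 or D6 for sorted cells. This day of gating, replating, the serum base and the harvest without a sort changed together with the comparison and cannot be told apart. Same-numbered libraries of different gates deviated together from their group means, with correlations of 0.305 to 0.596 in D4 and 0.0983 to 0.473 in D6 progeny. The fit treated the 9 libraries of an arm as independent, so its SE and adjusted p do not allow for this. At D4, 2 of the 9 genes were called, both higher, where 6.75% of 24857 genes tested were called and 3.26% were called higher. At D6, 4 of the 9 were called, all higher, where 12.3% of 25515 genes were called and 6.19% were called higher. The median log2 fold change of the 9 genes was 0.88 at D4, where that of all genes tested was -0.24, and 1.43 at D6, where it was -0.28.

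At D4, Jun was 1102 to 3518 in sorted cells (median 1983) and 3816 to 6322 in progeny (median 4865), so that each progeny library lay above all 9 sorted libraries. Such a separation was found for 0.651% of genes at D4, and for 0.619% at D6, where it held for 0 of the 9 genes. The log2 fold change of Jun was 1.26 ± 0.205 (SE, 9 against 9, adjusted p = 1.52e-04) at D4. At D6, Jun was 422 to 3962 in sorted cells (median 1243) and 3510 to 8749 in progeny (median 5541), and 7 of 9 progeny libraries lay above every sorted library. The single overlap came from replicate 1 of D6 Sox1+FOXA2+ (3962). Its log2 fold change was 2.13 ± 0.327 (adjusted p = 1.41e-04), and both calls held without any 1 of the 18 libraries.

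Junb was 0 to 493 in sorted cells at D4 (median 155) and 388 to 2179 in progeny, with a log2 fold change of 2.51 ± 0.674 (SE, adjusted p = 0.0273). At D6 it was 9.10 to 1133 in sorted cells (median 170) and 589 to 1744 in progeny, with a log2 fold change of 2.22 ± 0.486 (adjusted p = 0.00245). Within each of the 3 gates the 3 progeny libraries of Jun and of Junb lay above the 3 sorted libraries, at both days. The share of all genes with such a separation by gate was not counted, so it describes these libraries only. The D4 call of Junb was lost without D4 Sox1-FOXA2+ replicate 3 (adjusted p = 0.0622), Sox1+FOXA2- replicate 2 (0.0534) or Sox1+FOXA2+ replicate 1 (0.0503).

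Dusp1, the MAP kinase phosphatase, was 78.9 to 876 in sorted cells at D6 (median 442) and 517 to 1616 in progeny (median 720.1), with a log2 fold change of 1.48 ± 0.436 (SE, adjusted p = 0.0239). Its arms did not overlap in Sox1-FOXA2+ and Sox1+FOXA2+ but overlapped in Sox1+FOXA2-, where sorted cells had 533, 876 and 633 and progeny 709, 677 and 639. Separation by gate was not counted over all genes. The call was lost without D6 Sox1+FOXA2+ replicate 1 (adjusted p = 0.0527) or 3 (0.0586), Sox1-FOXA2+ progeny replicate 1 (0.0559) or Sox1+FOXA2+ progeny replicate 3 (0.0567). At D4 Dusp1 differed by 0.51 on the log2 scale (adjusted p = 0.450).

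Ier3 was 0 to 401 in sorted cells at D6 (median 44.2) and 209 to 1974 in progeny (median 594), with a log2 fold change of 3.29 ± 1.06 (SE, adjusted p = 0.0456). The sorted D6 libraries at 303, 347 and 401 were all Sox1-FOXA2+, and this gate overlapped with its progeny (895, 408 and 226). The call was near the threshold, being lost without any 1 of 14 of the 18 libraries (adjusted p from 0.0262 to 0.105 over all 18) and kept without Sox1-FOXA2+ replicate 2, Sox1+FOXA2+ replicate 2 or Sox1-FOXA2+ progeny replicates 2 or 3. It was also lost with the replicate number as a block, with all 57 libraries in a single fit (0.116) and with DESeq2 size factors (0.0519).

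The remaining genes did not pass in the main fit. DESeq2 called 3 of the 9 genes at D4 in place of 2, where it called 14.7% of all genes. At D6, 5 passed with no filter on low counts in place of 4, where 10.8% of all genes passed. With all 57 libraries in a single fit 4 passed at D6, as did 10.8% of all genes, although Ier3 was lost there. Atf3 differed by 0.88 ± 0.358 at D4 (SE, log2 scale, adjusted p = 0.141) and by 1.24 ± 0.441 at D6 (0.0647). It passed at D4 without Sox1+FOXA2- replicate 1 (0.0395) or Sox1+FOXA2+ replicate 3 (0.0323). At D6 it passed without any 1 of 5 of the 18 libraries, namely Sox1+FOXA2+ replicate 2 (0.0156), Sox1-FOXA2+ progeny replicates 2 (0.0387) or 3 (0.0315), Sox1+FOXA2- progeny replicate 1 (0.0347) and Sox1+FOXA2+ progeny replicate 2 (0.0432). Fos differed by 1.47 at D4 (adjusted p = 0.343) and by 0.97 at D6 (0.333). At D4, 1 Fos progeny library lay above all sorted ones. For Fosb the values were -0.68 (adjusted p = 0.745) and 1.43 (0.482), for Egr1 -0.56 (0.514) and -0.34 (0.819), and for Ier2 0.11 (0.861) and -0.46 (0.366). Whether the difference between progeny and sorted cells itself differed between the 3 gates was tested with an interaction term. At D4 that test called 0% of genes (0 genes, with 1180 at an unadjusted p under 0.05, and 26 with DESeq2) and at D6 0.0274%, with 0 of the 9 genes at either day (2 at an unadjusted p under 0.05 and 0 with DESeq2 at each), and the lowest adjusted p at D6 was 0.558, shared by Jun and Dusp1. Over all genes, 1180 of 24857 at D4 and 2245 of 25515 at D6 were at an unadjusted p under 0.05. DESeq2 called 0.105% and 0.674% of them.

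**Figure D2:**
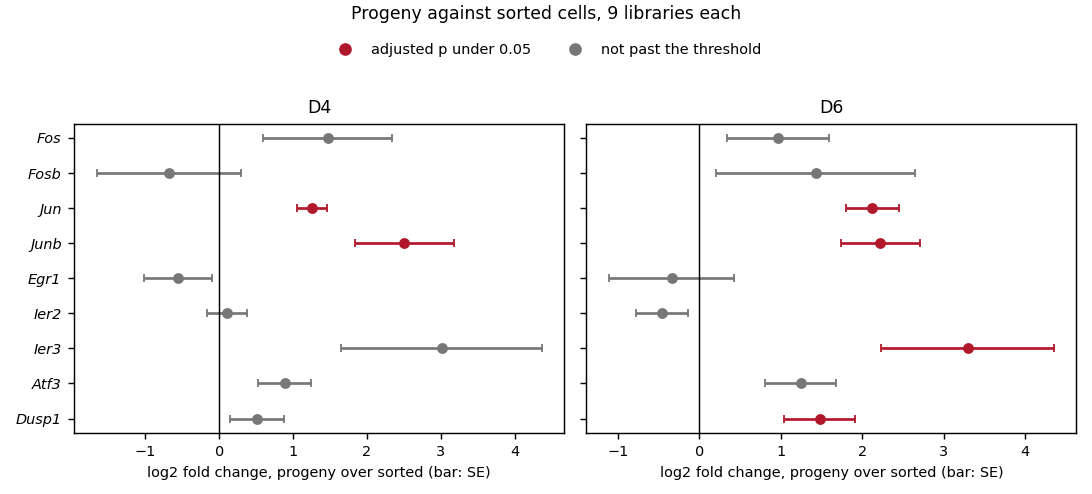
Log2 fold change of progeny over sorted cells (horizontal axis, bars are SE) for the 9 genes at D4 (left) and D6 (right), 9 libraries in each arm. Red points passed an adjusted p under 0.05: Jun (1.26) and Junb (2.51) at D4, and Jun (2.13), Junb (2.22), Ier3 (3.29) and Dusp1 (1.48) at D6.

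Markers of other cell types moved with the same comparison. The mesenchyme and smooth muscle markers Col1a1, Col1a2, Acta2 and Tagln summed to 209 to 4120.0 normalized counts in the sorted D4 libraries and to 14289 to 87992 in D4 progeny, and to 12.1 to 6550 and 5073 to 84174 at D6. Col1a1 (log2 fold change 5.01 at D4 and 5.62 at D6) and Acta2 (4.86 and 5.16) were called among these 4 at both days. The summed pluripotency markers ran from 1466 to 12479 in sorted cells and from 523 to 3508 in progeny at D4, and from 1425 to 12944 and from 193 to 2942 at D6. Of those 4 markers, 1 was lower in progeny at D4 and 3 at D6. The neuroectoderm markers Sox1, Pax6 and Nes summed to 1903 to 14513 in sorted cells and 5652 to 38378 in progeny at D4, and to 512 to 9909 and 2678 to 22629.8 at D6. Nes was higher (log2 fold change 1.87 at D4 and 2.08 at D6) and Pax6 lower (-1.48 and -2.20) in progeny, and Sox1 was listed at 0 in all 57 libraries, those of the Sox1+ gates included. Srf, a gene that cells use widely, was also listed at 0 in all 57, so these zeros are not read as a lack of expression. Of the 4 endoderm markers Foxa2, Sox17, Gata4 and Gata6, which summed to 244 to 28638 in sorted cells and 1025 to 25877 in progeny at D4, and to 516 to 44747 and 3535 to 57494 at D6, Gata6 was higher at D4 (1.45) and 0 were called at D6. The blood markers Ptprc, Kdr and Hbb-bs gave 0 calls of 2 tested, and Hbb-bs had 0 counts in 54 of 57 libraries. The part of these cell types in the results on the immediate early genes was not tested.

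Genes related to the 9 by function were followed as fixed lists in the same comparison. Of 16 other immediate early response genes, 5 were higher and 0 lower in progeny at D4, and 7 were higher and 0 lower at D6, with median log2 fold changes of 1.32 and 1.47. At D4 they included Ier5 (2.31), Plk2, a stress-linked kinase (2.03), Ptgs2, the inducible prostaglandin synthase (5.70), and Ccn1, a secreted matricellular protein (2.07). At D6 Ptgs2 (6.88), Plk2 (2.62), Btg2 (1.51) and Ppp1r15a (1.14) had the smallest adjusted p. Of 7 tested AP-1 and ATF/MAF relatives, Fosl2, a further partner of JUN, was higher at D4 (3.26 ± 0.461, SE) and at D6 (3.43 ± 0.292), where Mafk was higher as well (1.98). Their median was 1.28 at D4 and -0.01 at D6.

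Of 8 tested immediate early transcription factors outside the 9 genes, Klf6 was higher at D4 (log2 fold change 1.03) and D6 (1.25), and Klf10 was lower at D6 (-1.17). Of 8 MAP kinase feedback genes, Dusp5 was higher at D4 (1.35), and Dusp4 (2.06) and Dusp5 (1.66) at D6. Srf itself was not tested, and of 5 SRF partners tested 0 were called at D4 and Mrtfa (0.91) at D6. The small heat shock protein gene Hspb1 was higher at both days (2.41 and 2.08) and Dnajb1 at D6 (0.86) among 7 heat shock genes. In the ATF4 stress response, 7 genes were tested, of which Asns was lower at both days (-1.24 and -1.37) and Atf4 was higher at D6 (0.80).

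Among progeny, Atf3 was higher in those of Sox1-FOXA2+ than in those of Sox1+FOXA2- cells. At D6, Atf3 was 7342, 2202 and 1790 in Sox1-FOXA2+ progeny, 252, 687 and 698 in Sox1+FOXA2- progeny and 942, 562 and 706 in Sox1+FOXA2+ progeny, so that Sox1-FOXA2+ progeny overlapped with neither. The share of all genes separated in this way was not counted, so the separation describes these libraries only. The log2 fold change against Sox1+FOXA2- progeny was 2.77 ± 0.592 (SE, 3 against 3, adjusted p = 0.0169). This was 1 of the 9 genes, and it was higher, where 6.91% of 21069 genes were called and 3.59% were called higher. The test across all 3 gates also called Atf3 alone among the 9 (adjusted p = 0.0178), where 6.24% of genes were called. With the replicate block both calls were lost (adjusted p = 0.0531 between these progeny and 0.0580 across the 3 gates). The replicate numbers paired 2 of the 3 pairs of groups in D6 progeny, but not Sox1-FOXA2+ with Sox1+FOXA2-, whose lowest correlation was 0.0983. The call between the pair of progeny was also lost without Sox1+FOXA2- progeny replicate 2 (adjusted p = 0.0556) and with all 57 libraries in a single fit (0.0992). Without Sox1-FOXA2+ progeny replicate 1, the library at 7342, the log2 fold change was 1.82 (adjusted p = 0.00624).

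At D4, Atf3 was 2490.4, 2708 and 1946 in Sox1-FOXA2+ progeny against 481, 1373 and 730 in Sox1+FOXA2- and 1239.8, 576 and 1011 in Sox1+FOXA2+ progeny, again without overlap. Such separation was not counted over all genes here either. The log2 fold change of 1.46 ± 0.398 (SE) did not pass (adjusted p = 0.0723), nor did the test across the 3 gates (0.0589), and 0 of the 9 genes were called where 1.97% and 1.72% of 20697 genes were. At an unadjusted p under 0.05, 2 of the 9 (Atf3 and Egr1) were below the threshold in both tests, and DESeq2 called 2 of the 9 in each. Over all 20697 genes, 2125 and 1878 were below it, and DESeq2 called 3.94% and 3.6%. The replicate numbers paired these libraries, and with the replicate block Atf3 passed at D4 between these progeny (adjusted p = 0.0309, 885 genes called in place of 408) and across the 3 gates (0.0281, 950 in place of 357).

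Egr1 lay the other way round. At D6 it was 1345, 2416 and 1316 in Sox1+FOXA2- progeny, 1.72, 588 and 338 in Sox1-FOXA2+ progeny and 159.6, 216 and 247 in Sox1+FOXA2+ progeny. The Sox1+FOXA2- libraries lay above all others, a separation whose share among all genes was not counted. The log2 fold change of -2.51 ± 1.23 (SE) did not pass (adjusted p = 0.369). Without Sox1-FOXA2+ progeny replicate 1, the library at 1.72, with 2 raw counts, the value was -1.93 (adjusted p = 0.00574) and Jun passed as well (-0.98, adjusted p = 0.0305). With all libraries Jun differed by -0.74 ± 0.259 (adjusted p = 0.114) and Ier2 by -0.94 ± 0.335 (0.124), and without Sox1-FOXA2+ progeny replicate 2 Ier2 passed (-1.36, 0.0451). At D4 Egr1 was 248, 2935 and 867 in Sox1+FOXA2- progeny and 97.8, 371 and 353 in Sox1-FOXA2+ progeny, which overlapped (log2 fold change -2.30 ± 0.749, adjusted p = 0.209). Without Sox1+FOXA2- replicate 1 the D4 difference of Egr1 passed (adjusted p = 0.00687), and without replicate 2 that of Atf3 passed (2.01, 0.00642).

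**Figure D3:**
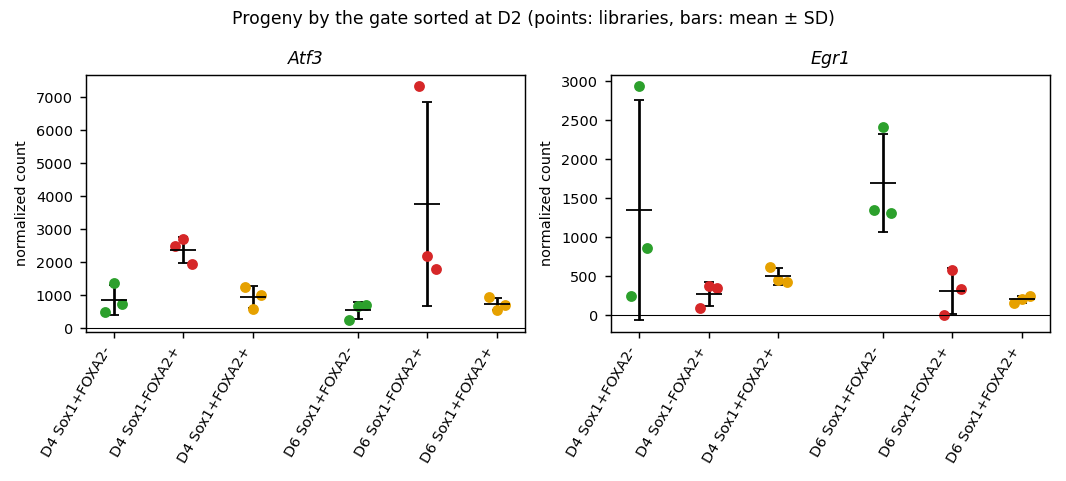
Normalized counts (vertical axis) of Atf3 (left) and Egr1 (right) in progeny, by day and by the gate sorted at D2 (horizontal axis). Points are libraries and bars are mean ± SD of 3. Atf3 is 1790 to 7342 in D6 Sox1-FOXA2+ progeny and at most 942 in the other D6 progeny, and Egr1 is 1316 to 2416 in D6 Sox1+FOXA2- progeny.

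The endoderm markers Foxa2, Sox17, Gata4 and Gata6 were all 4 higher in D6 Sox1-FOXA2+ than in Sox1+FOXA2- progeny, and summed to 28938 to 57494 against 3535 to 4803 normalized counts. The neuroectoderm markers Sox1, Pax6 and Nes summed to 2678 to 3718 against 12592 to 22629.8, with Pax6 and Nes lower and Sox1 listed at 0, and the mesenchyme markers to 5073 to 12735 against 54899.6 to 84174, with Acta2 lower. The part of these cell types in the Atf3 result was not tested. Of 8 MAP kinase feedback genes, 4 were lower in Sox1-FOXA2+ progeny at D6, namely Dusp6 (log2 fold change -2.92), Spred1 (-2.34), Spred2 (-1.08) and Dusp4 (-1.19), and Spred1 was lower at D4 (-1.23). Of 16 other immediate early response genes, Ccn2 (3.53) and Sgk1 (1.07) were higher and Ptgs2 (-1.80) and Ier5 (-1.50) lower at D6. At D4 Ccn2 was higher (2.63) and Ier5 lower (-1.45). The immediate early transcription factor Nr4a3 was higher (3.30) and Myc lower (-1.64) at D6, and Fosl2 (-1.44) and Hspb1 (-1.28) were lower.

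In the sorted cells, 0 of the 9 genes differed between Sox1-FOXA2+ and Sox1+FOXA2- at any day. Calls were few among all genes as well, with 0.00491% of 20369 genes at D2, 0.266% of 22946 at D4 and 1.32% of 24203 at D6, and 0.0344%, 0.619% and 1.14% across the 4 gates of each day, again without any of the 9. DESeq2 also called 0 of the 9 between the single positive gates, and 1, 0 and 0 across the gates of D2, D4 and D6. It called 1.1%, 2.23% and 6.4% of all genes between these gates, and 1.5%, 2.77% and 2.91% across the gates. At an unadjusted p under 0.05 edgeR gave 1 of the 9 at D2 (Fos), 1 at D4 (Ier3) and 2 at D6 (Jun and Atf3), and 2, 0 and 1 across the gates. Over all genes, 1031 of 20369, 1250 of 22946 and 3255 of 24203 were under that p, and 1408, 1940 and 2087 across the gates. At D6 Atf3 was 1014, 1554 and 1422 in Sox1-FOXA2+ cells and 425, 56.4 and 322 in Sox1+FOXA2- cells, which did not overlap (log2 fold change 2.49 ± 0.989, SE, adjusted p = 0.320). Jun was 2648, 1339 and 2025 against 1243, 777 and 422 at D6, also without overlap (1.47 ± 0.579, adjusted p = 0.315). How many of all genes lay without overlap was not counted. At D4 Ier3 had 133, 31.6 and 14.3 in Sox1-FOXA2+ cells and 0 counts in all 3 Sox1+FOXA2- libraries (adjusted p = 0.881). The replicate numbers paired Sox1-FOXA2+ with Sox1+FOXA2- cells at D4 and D6. With the replicate block 144 and 517 genes were called in place of 61 and 319, still without any of the 9.

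Over time, 0 of the 9 genes passed between consecutive days in edgeR. At an unadjusted p under 0.05 there were 3 from D0 to D2, 4 from D2 to D4, 0 from D4 to D6 in sorted cells and 2 in progeny, and DESeq2 called 2, 4, 0 and 1. Over all genes, 3336 of 21278, 4580 of 28080, 2043 of 28080 and 2861 of 24025 were under that p. DESeq2 called 7.98%, 5.71%, 0.481% and 4.42% of all genes. From D0 to D2 in Sox1-FOXA2- cells, where 1.93% of 21278 genes were called, Ier2 went from 2441, 1488 and 2588 to 737, 789 and 867, which did not overlap (log2 fold change -1.40 ± 0.390, SE, adjusted p = 0.0694). How many of all genes did not overlap was not counted. Atf3 differed by 2.70 ± 0.887 (adjusted p = 0.138) and Junb by -2.56 ± 1.15 (0.300). Without D0 replicate 2 the difference of Ier2 passed (adjusted p = 0.0479). Among related genes Spred1 was higher at D2 (1.49), and Sgk1 (-2.09) and Myc (-3.85) were lower.

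From D2 to D4 over the 4 gates, 0.897% of 28080 genes were called. Jun differed by 1.08 ± 0.299 (SE, log2 scale, adjusted p = 0.0528), Fos by 3.16 ± 1.22 (0.155), Fosb by 5.16 ± 1.98 (0.153) and Dusp1 by 1.37 ± 0.493 (0.122). From D4 to D6, 0% of genes were called in sorted cells (0 genes, with 2043 at an unadjusted p under 0.05, and 135 with DESeq2). A test of whether the course differed between gates called 0.0819% of genes and 0 of the 9 (2 at an unadjusted p under 0.05, 0 with DESeq2). Of 28080 genes, 2516 were at that unadjusted p, and DESeq2 called 0.694%. In progeny, 1.79% of 24025 genes were called between D4 and D6, and Ier3 differed by 1.91 ± 0.539 (adjusted p = 0.0841), from 0 to 547 at D4 to 209 to 1974 at D6. Among related genes Ccn2 (1.38), Btg2 (0.70) and Spry2, a feedback inhibitor of MAP kinase signalling (1.01), were higher and Hspb1 (-0.60) lower in D6 than in D4 progeny.

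The replicates of most of the 9 genes lay closer together in progeny than in sorted cells. The SD of log2 CPM within conditions was 2.21 in sorted and 0.522 in progeny libraries for Fos, 3.11 and 0.819 for Fosb, 0.816 and 0.298 for Jun, and 1.99 and 0.552 for Junb. It was 2.74 and 1.77 for Ier3, 1.30 and 0.745 for Atf3, 0.767 and 0.632 for Dusp1, and 0.669 and 0.366 for Ier2. Egr1 was the exception, with 1.14 in sorted and 1.92 in progeny libraries. The larger SD in sorted libraries was shared by 83.3% of 29607 genes, so the 8 of 9 were near the background. Fos had 0 counts in 8 of 39 sorted libraries, Fosb in 17 and Junb in 1, and in 0 of 18 progeny libraries. Genes with a 0 in the sorted arm and none in progeny made up 14.3% of all genes tested.

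**Figure D4:**
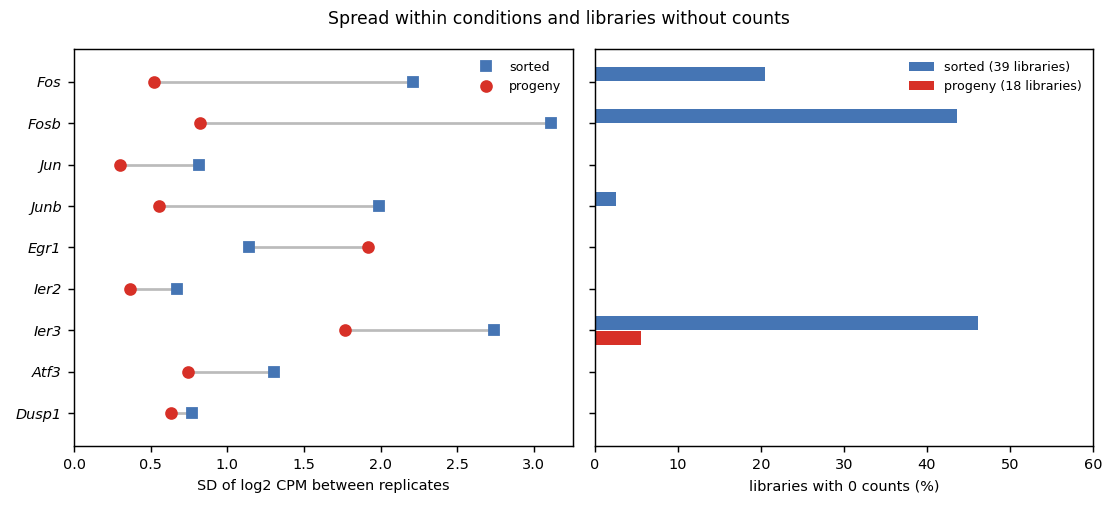
Left, SD of log2 CPM between replicates (horizontal axis) of the 9 genes in sorted (squares) and progeny (circles) libraries. Right, share of libraries with 0 counts in percent, of 39 sorted and 18 progeny libraries. The SD of Fos is 2.21 in sorted and 0.522 in progeny libraries, and that of Egr1 is 1.14 and 1.92.

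The biological coefficient of variation from the fit of all 57 libraries gave the spread at a given level. It was lowest for Jun (0.443) and Ier2 (0.448), followed by Dusp1 (0.576), Atf3 (0.651), Egr1 (0.739), Junb (0.886), Fos (1.19), Ier3 (1.65) and Fosb (1.70). Ier3 varied more than genes of its level, with 1.39 times the trend (98.4th percentile of all genes), and Dusp1 less, with 0.75 times the trend (7.75th percentile). Ier2 stood at 0.810 and Jun at 1.02 times the trend. The share of the variance of log2 CPM that lay between conditions was 84.2% for Jun, 74.4% for Dusp1, 70.0% for Fos and 69.2% for Atf3. Its median was 64.1% over the 9 genes and 40.3% over all genes tested. The median level was 4.04 log2 CPM over the 9 genes and 1.14 over all genes tested, so these shares were not matched for level.

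Whether the other 8 genes moved with Fos between replicates of a condition was tested on deviations from the condition mean of log2(normalized count + 1) in 57 libraries, with a permutation test of 100000 resamples of the replicate labels. After adjustment over the 8 pairs, 0 passed. Pearson's r was -0.315 for Ier3 (Spearman's rho -0.315, permutation p = 0.0313, adjusted p = 0.251), 0.291 for Atf3 (rho 0.236, p = 0.155, adjusted 0.413), -0.246 for Dusp1 (rho -0.282, p = 0.0801, adjusted 0.321), and between -0.0801 and 0.113 for the other 5. Without the 2 libraries farthest from the median of Fos (D4 Sox1+FOXA2- replicate 1 and D0 replicate 2), r was -0.368 for Ier3, 0.293 for Atf3 and -0.208 for Dusp1. Within progeny, r between Fos and Atf3 was 0.690 (18 libraries, permutation p = 0.00586, adjusted p = 0.0469), and within sorted cells it was 0.277 (39 libraries, p = 0.213, adjusted p = 0.568). Each of these adjustments covers the 8 pairs of its own arm only. The permutation treats conditions as independent, although same-numbered progeny libraries deviated together, and no library was left out for the value within progeny.

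Across the 19 condition means, each taken over its own libraries, Fos correlated with Junb (r = 0.680), Ier3 (0.679), Dusp1 (0.663), Jun (0.636) and Fosb (0.611). It correlated less with Atf3 (0.400), Ier2 (-0.0216) and Egr1 (-0.179). Egr1 and Ier2 correlated with each other at 0.592. Among 13913 genes with at least 100 normalized counts on average, the condition means most like those of Fos were of Dcn (r = 0.867), Gata3 (0.859), Hbegf (0.845), Socs3 (0.843) and Cpne2 (0.839). The closest were Lpp for Jun (0.956), Cobll1 for Ier3 (0.913), Fbln2 for Fosb (0.907), Tlnrd1 for Junb (0.905), Larp4b for Atf3 (0.886), Gm9531 for Ier2 (0.817) and Kif21b for Egr1 (0.795). These values describe likeness over 19 points and carry no test.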

How the data were processed

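Libraries were made with the SMART-Seq Stranded Kit, and reads were aligned with STAR, handled with SAMtools and counted per gene with featureCounts on GENCODE M21 (GRCm38); versions and the strand setting are not given in the sources used here. The deposited values are raw counts per gene, made by the authors without normalization. The 92 lines that name no gene held 0 counts (0%) and were left out.

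Genes were tested with edgeR 4.0.16 in R 4.3.3 (TMM, filterByExpr at 10 counts per gene and 15 in total, robust quasi-likelihood F test, two-sided, Benjamini-Hochberg over all genes tested, threshold 0.05). Each fit held the libraries of a day and arm, or the groups compared, except for changes between days in sorted cells. From D0 to D2 the fit held the Sox1-FOXA2- sorted libraries of D0, D2, D4 and D6. For the later changes it held all sorted libraries of D2, D4 and D6. SE was the log2 fold change over the square root of F, and the prior count was 0.125 for fold changes and 2 for log2 CPM. Normalized counts used size factors of DESeq2 1.42.0 over 57 libraries. Comparisons of progeny with sorted cells were additive over 3 gates. Where conditions are said not to overlap, the share of all genes that did not overlap was not counted.

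The 9 genes and the lists were chosen with earlier results of these data known. The text names all 9 genes, up to 4 called genes of each list and direction by adjusted p in comparisons between a pair of groups or days, lists with at most 5 genes tested, and the nearest pattern of each gene (5 for Fos), except that of Dusp1, which is not reported here. Alternatives were DESeq2's test, its size factors in edgeR, no filter, a single fit of 57 libraries, the replicate block and each library left out in turn, or each replicate number over all groups for the changes between days.

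Replicate numbers were taken as pairing libraries where all 3 correlations of same-numbered deviations from the group mean, over 5000 genes, were over 0.1. This held for 3 of 3 pairs of groups in D4 progeny, 2 of 3 in D6 progeny, 1, 4 and 5 of 6 in sorted cells of D2, D4 and D6, and 0 of 6 between progeny and sorted cells. The labels do not say that a number marks a shared culture, and p-values measure the spread between these libraries.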

Additional observations from a re-analysis of the deposited data

How the results depend on the processing

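Jun was called higher in progeny at D4 and D6 under every alternative run and without any 1 of the 18 libraries, and Junb at D6 likewise. Low counts limit Fos, Fosb and Ier3, which had 0 counts in 8, 17 and 18 of 39 sorted libraries. Of the 20 comparisons across genes, 12 kept their count of the 9 genes within 1.5 times in every other fit. With DESeq2 the count was 1 across the 4 gates at D2, 2 from D0 to D2, 4 from D2 to D4, 1 from D4 to D6 in progeny, 2 for Sox1-FOXA2+ against Sox1+FOXA2- progeny and across the 3 gates at D4, and 2 across the 3 gates at D6. The shares of all genes called were 1.5%, 7.98%, 5.71%, 4.42%, 3.94%, 3.6% and 11.7% in this order. With no filter on low counts the count was 2 from D2 to D4, 1 from D4 to D6 in progeny, 2 in both D4 progeny comparisons, 2 for Sox1-FOXA2+ against Sox1+FOXA2- progeny at D6 and 3 across the 3 gates. Here the shares were 2.78%, 2.9%, 2.26% and 2.46%, 6.6% and 8.11%. With all 57 libraries in a single fit the count was 4 from D2 to D4 (2.92% of all genes) and 0 for D6 progeny, and with DESeq2 size factors in edgeR 1 from D2 to D4 (1%). With the replicate block the count was 1 in both D4 progeny comparisons (4.28% and 4.59% of all genes) and 0 in both D6 progeny comparisons, where Atf3 had adjusted p of 0.0531 and 0.0580. In the comparison of D6 progeny with sorted cells, the numbers paired most groups within each arm but none across the arms. There the block gave Atf3 0.0426 and Ier3 0.0656, and across the 19 conditions Ier3 0.0516. The block changed no other call of the 9 genes that the text prints. Calls of related and marker genes were read in the main fit only. The cause of these changes was not tested.

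Over the libraries left out in turn, the count ran from 1 to 3 for progeny against sorted cells at D4 and from 2 to 5 at D6, from 0 to 1 for D4 and from 0 to 3 for D6 Sox1-FOXA2+ against Sox1+FOXA2- progeny, and from 0 to 1 from D0 to D2. Of the uncalled fold changes of the 9 genes printed above, that of Fosb in progeny against sorted cells at D4 turned (-0.78 to 0.34). Values not printed above turned as well, such as Fos from D0 to D2 (-3.44 to 0.15) and, at D6, Fosb in sorted Sox1-FOXA2+ against Sox1+FOXA2- cells (-8.89 to 2.08). For Fos, the number of pairs past the threshold was 0 to 1 without a replicate number, and r with Dusp1 ran from -0.56 (without replicate 3, adjusted p = 0.0245) to 0.056 (without replicate 2).

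Counts over all genes moved more. DESeq2 called 1697 genes from D0 to D2 (edgeR 410), 1603 from D2 to D4 (252), 3661 at D4 (1677) and 5737 at D6 (3141) in progeny against sorted cells, and no filter called 1006, 1011, 2318 and 3804. With 57 libraries in a single fit, 53 genes in place of 408 at D4 and 263 in place of 1456 at D6 were called between Sox1-FOXA2+ and Sox1+FOXA2- progeny. In sorted cells, DESeq2 called 224, 512 and 1550 genes between Sox1-FOXA2+ and Sox1+FOXA2- at the 3 days in place of 1, 61 and 319. With 1 library left out, 102 to 547 genes were called from D0 to D2, and with 1 replicate number left out 4 to 58 from D2 to D4 and 165 to 342 in progeny from D4 to D6 (431 with all).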
